A study of Mus musculus with 38 samples.

Results

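The comparison described here set 9 libraries of stressed male mice (MS1 to MS9) against 10 libraries of unstressed male controls (MC1 to MC10), chosen by their titles and column names from a series of 38 libraries. All males were wild type (WT), and the stressed males had gone through 6 weeks of chronic variable mild stress, in which stressors such as restraint, forced swimming, wet bedding, cage tilting and changed light hours came in random order. The sources used here do not state the age or strain of the mice, and the labels describe the controls only by that word. Each library held poly-A RNA of a microdissection from the adBNST, the anterodorsal division of the bed nucleus of stria terminalis. The other 19 libraries came from 10 control and 9 stressed females and entered the model as groups of their own. MS5, a stressed male, carried a large amount of choroid plexus RNA, so the gene counts and many of the differences and medians are given with and without it. Where a gene or list has a single difference or median, MS5 is counted unless stated.

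The bed nucleus of the stria terminalis is a small forebrain region of the extended amygdala, built mostly of GABAergic neurons that also make peptides such as CRH, NPY and somatostatin. It takes part in sustained anxiety and relays limbic signals to the hypothalamic neurons that start the release of stress hormones. It lies beside the septum, the striatum, the thalamus and the lateral ventricle with its choroid plexus, so a microdissection can carry RNA of these neighbours. In such bulk tissue, fewer cells of a type and less RNA per cell cannot be told apart.

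Total counts ran from 9.06 to 84.8 M per control library, with a median of 28.1 M, and from 15.9 to 36.1 M per stressed library, with a median of 22.5 M. MC3 was the shallowest library and MC1 the deepest. The Y-linked transcript Ddx3y and the lack of Xist matched the label in 19 of 19 male libraries. All 20 markers of adBNST neurons, such as Gad1, Slc32a1 and Sst, were detected and tested, and their median difference was 0.0043, or 0.017 without MS5. Whether every numbered library was a different animal is not stated in the labels. The p-values therefore measure the spread between libraries, which may be partly technical. The labels do not say what the replicate numbers stand for, but levels went with them: the score of mature oligodendrocyte markers (mean centred log2 CPM over the members) ran from 0.24 to 0.97 in male libraries numbered up to 5 and from -0.89 to 0.55 in those from 6. Values within each of these number sets are given where they matter. MC3 stood apart from the other males, with the highest scores for oligodendrocytes (0.97) and cytosolic ribosomal proteins (0.93) and the lowest for choroid plexus (-1.62) and fibroblasts (-1.01), and several results that moved with it are also given without it. Levels are CPM, counts scaled to a common effective library size, and differences are log2 values, stressed minus control, with their standard error.

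No gene passed. Among 16309 genes, edgeR's quasi-likelihood test called 0 at an adjusted p under 0.05 (0% of the genes tested), and the lowest adjusted p was 0.575, for Ttr. Without MS5 it again called 0 of 16394 genes (0%), with a lowest adjusted p of 0.902. At an unadjusted p under 0.05 there were 248 genes higher in stressed males (1.52%) and 404 lower (2.48%), 652 in all (4%), where the level alone gives 815. Other fits gave more such genes, 467 higher and 728 lower with male libraries alone, 491 and 704 with a term for the number set, and 1161 and 1015 with the replicate number as a block in males alone, and none of them passed the adjusted threshold. Without MS5 these were 219 higher (1.34%) and 272 lower (1.66%), 491 in all (2.99%). DESeq2 and limma voom also called 0 genes, with 309 higher and 420 lower by DESeq2 and 523 higher and 541 lower by voom at the unadjusted level. The median difference over all genes tested was -0.022, and 55% of them were below 0.

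These unadjusted counts moved with single libraries. The number higher was 152 without MC3, 139 without MC7, 446 without MC5 and 528 without MC10. The number lower was 188 without MC3, 231 without MC7 and 266 without MS9. Counts were also simulated with gene means over all 38 libraries and the real library sizes. In them the same test recovered 92 of 100 genes changed by 1 on the log2 scale and 56 of 100 changed by 0.5. The changed genes were all above 5 CPM, and 5 unchanged genes were called. Each gene was drawn independently, without the shifts of whole libraries described here, so these shares do not measure what the real comparison could detect. Apart from Ttr, every gene named below had an adjusted p of 0.864 or more in edgeR's test, and its differences are given as measurements that did not pass.

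The transcripts furthest apart between the groups belonged to MS5 alone. In MS5, 14 genes of at least 5 CPM stood more than 4 times above the highest of the other 18 male libraries, 6 of them more than 10 times. By the same count the other libraries held 0 such genes each, except MC3 with 1. Ttr, the thyroid hormone and retinol carrier that choroid plexus epithelium secretes into the cerebrospinal fluid, ran from 0.712 to 27.5 CPM in controls (median 4.02) and from 0.907 to 41.1 in the other 8 stressed libraries, against 2878 in MS5. With MS5 the stressed group thus held the highest library by far, while the remaining stressed and control libraries overlapped.

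The other transcripts of this kind have well known places in the choroid plexus. Kl, which encodes the anti-ageing protein klotho, ran from 3.78 to 13.2 CPM in controls and from 10.3 to 14 in the other stressed libraries, against 139 in MS5. The coagulation factor gene F5 stood at 51.8 CPM in MS5 and at most 2.81 elsewhere, and Kcnj13, a potassium channel of the apical membrane, at 34.5 and at most 0.835. The folate receptor Folr1 reached 20.3 CPM against at most 2.67, the water channel Aqp1 19 against 1.49, the potassium channel subunit Kcne2 15 against 0.894 and the tight-junction protein Cldn2 16.6 against 0.727. The growth factor Igf2, which choroid plexus and meninges make, stood at 231 CPM in MS5, against 24.1 to 45.2 in controls and 27.1 to 45.8 in the other stressed libraries. Its binding protein Igfbp2 stood at 51.9 against at most 10.6, the ion channel Trpv4 at 13.2 against 2.53, Sostdc1, an antagonist of BMP and Wnt ligands, at 21.9 against 4.8, and Abca4 at 22.4 against 4.35.

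**Figure D1:**
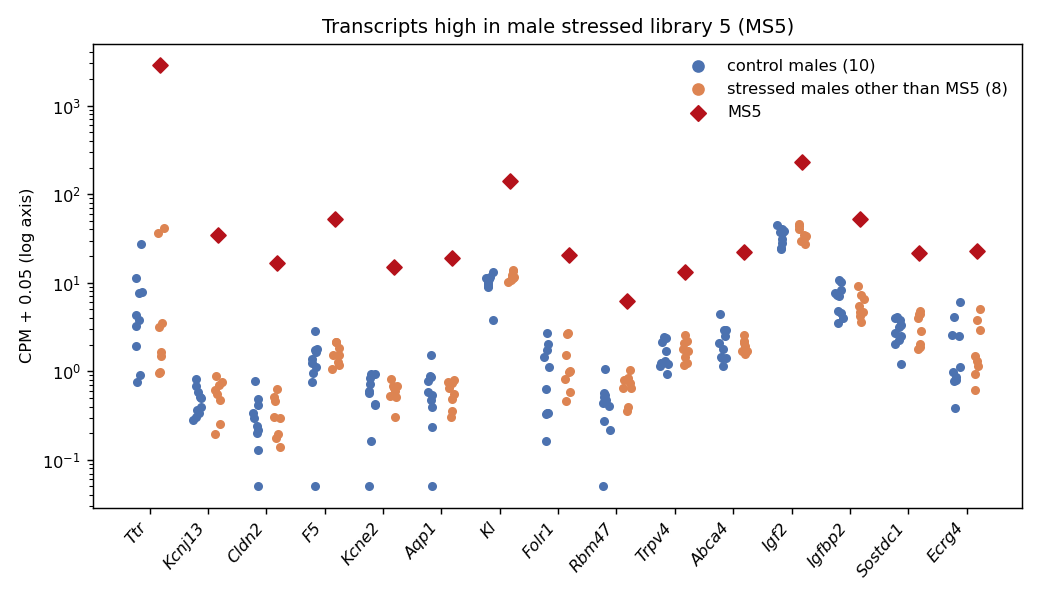
CPM (log axis, with 0.05 added) of 15 transcripts that were highest in MS5, in each male library. Blue points are the 10 control libraries, orange points the other 8 stressed libraries and the red diamond MS5, which stands above all 18 others for each transcript, with Ttr at 2878 CPM.

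These transcripts set the size of the stress difference wherever MS5 was counted. The difference of Ttr was 5.57 ± 1.19 with MS5 and 0.72 ± 0.74 without it, that of Kcnj13 3.29 ± 0.78 and 0.25 ± 0.50, and that of Kl 1.39 ± 0.37 and 0.27 ± 0.17. For Aqp1, Abca4 and Igfbp2 the sign turned, from 2.10 to -0.13, from 0.93 to -0.20 and from 0.67 to -0.24. Of 18 choroid plexus markers tested, 17 were above 0 and 13 were higher at an unadjusted p under 0.05, where 1.52% of all genes were, and their median was 0.86. Without MS5, 13 of 18 were above 0, 1 was higher at that level, against 1.34% of all genes, and the median was 0.16. That 1 was Trpm3, a cation channel gene of the choroid plexus and of neurons, at 0.28 (0.38 with MS5).

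MS5 also had the highest score of all males for markers of fibroblasts, endothelium, microglia and pericytes. Its score for leptomeningeal fibroblast markers was 0.94, against -0.25 to 0.42 in the other stressed and -1.01 to 0.54 in the control libraries. The list's median difference was 0.20 with MS5 and 0.065 without it. Its score for endothelial markers was 0.47, against at most 0.20 in the other stressed and 0.27 in the control libraries, and that list's median was 0.18 with and 0.11 without it. Its scores for microglia and for pericytes and smooth muscle were 0.60 and 0.31, against at most 0.53 and 0.23 in the other males, and those medians were -0.054 and 0.068 with MS5 and -0.099 and 0.047 without it. The microglia median turned to 0.095 without MC3. For markers of ependyma, the ciliated cells that line the ventricles, MS5 was the lowest stressed library at -0.63, inside the control range of -1.36 to 1.34.

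Among genes that did not follow MS5, Mast4 had the smallest p on the higher side. Mast4, a microtubule-associated serine/threonine kinase gene at chr13:102732486-103335099 (GRCm38.p6), ran from 50.1 to 85.9 CPM in controls, with a median of 73.4, and from 79.3 to 104 in stressed libraries, with a median of 96.8. All 9 stressed libraries lay above the control median and 5 above the highest control, while the lowest controls were MC7 and MC3. The difference was 0.36 ± 0.088 (edgeR, unadjusted p = 0.000239), and 0.34 ± 0.093 without MS5. The value was 0.36 for libraries up to number 5 and 0.35 for those from 6.

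Ppp1r3e and Zfp608 followed on this side. Ppp1r3e, a targeting subunit that brings protein phosphatase 1 to glycogen, ran from 5.29 to 8.43 CPM in controls (median 7.31) and from 7.77 to 10.2 in stressed libraries (median 8.67), a difference of 0.33 ± 0.095. Here 6 of 9 stressed libraries exceeded every control. Zfp608, which encodes a zinc finger protein, ran from 26 to 47 CPM in controls (median 38.9) and from 40.9 to 51 in stressed libraries (median 44.6), a difference of 0.24 ± 0.078, and 2 stressed libraries exceeded every control. Without MS5 these differences were 0.32 and 0.26.

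On the lower side the smallest p belonged to Bloc1s5, a subunit of the complex that builds lysosome-related organelles, at chr13:38602698-38637117. It ran from 14.3 to 24.5 CPM in controls (median 17.6) and from 11.8 to 15.4 in stressed libraries (median 13), with 5 stressed libraries below every control and none above the control median. The difference was -0.40 ± 0.11 (edgeR, unadjusted p = 0.000579), and -0.38 without MS5. Hddc2, an HD-domain nucleotidase gene, ran from 7.28 to 17.6 CPM in controls (median 12) and from 8.10 to 10.1 in stressed libraries (median 9.13), a difference of -0.45 ± 0.13. All 9 stressed libraries lay below the control median, but 1 control was lower than each of them.

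Mpc2, Cox5a and Nhej1 came next on this side, with Gon7, Mrpl44, Eef1akmt1, Cabyr and Fabp7. Mpc2, a subunit of the carrier that brings pyruvate into mitochondria, ran from 29 to 50 CPM in controls (median 40.6) and from 26.7 to 36.1 in stressed libraries (median 32.3), a difference of -0.36 ± 0.11. Cox5a, a nuclear-encoded subunit of cytochrome c oxidase, ran from 69.5 to 113 CPM in controls (median 93.1) and from 61.6 to 82.5 in stressed libraries (median 73.4), a difference of -0.31 ± 0.10 with 4 stressed libraries below every control. Nhej1, a factor that joins broken DNA ends, ran from 1.55 to 2.86 CPM in controls (median 1.84) and from 0.864 to 2.04 in stressed libraries (median 1.25), a difference of -0.58 ± 0.19. In Nhej1 7 of 9 stressed libraries lay below every control, at levels where each library held few reads.

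The others were Gon7, a member of the complex that modifies tRNAs (-0.47 ± 0.14), the mitochondrial ribosome gene Mrpl44 (-0.24 ± 0.074), the translation factor methyltransferase Eef1akmt1 (-0.45 ± 0.15), Cabyr (-0.51 ± 0.17) and Fabp7. Without MC3, Eef1akmt1 gave -0.35 and Cabyr -0.37. Fabp7, the fatty acid binding protein of astrocytes and radial glia, ran from 26.8 to 45.9 CPM in controls (median 33.6) and from 21.2 to 31.7 in stressed libraries (median 29.2), with MS5 the lowest, and the difference was -0.36 ± 0.12, or -0.31 without MS5. In each of these 5 genes all 9 stressed libraries lay below the control median, and both groups overlapped.

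Leaving MS5 out brought forward other genes, among them Cpne9 and the transcription factor genes Tbr1, Lhx1 and Barhl2. Tbr1, which specifies glutamatergic neurons of cortex and amygdala, at chr2:61802863-61814114, ran from 1.6 to 15.2 CPM in controls (median 6.21) and from 5.21 to 20.4 in stressed libraries (median 19.1). MS5 was the lowest stressed library at 5.21, and of the other 8, which ran from 8.70 to 20.4, 5 exceeded every control. The difference was 1.19 ± 0.41 with MS5 and 1.31 ± 0.42 without it (edgeR, unadjusted p = 0.00627 and 0.00316).

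MS5 was also the lowest stressed library for Cpne9, Lhx1 and Barhl2. Cpne9, a calcium-dependent membrane-binding protein gene, ran from 2.30 to 19.3 CPM in controls (median 5.51) and from 6.46 in MS5 to 24.7 in stressed libraries (median 19.6), a difference of 1.11 ± 0.38 with and 1.23 ± 0.39 without MS5. Lhx1, a LIM homeodomain factor, ran from 0 to 2.64 CPM in controls (median 0.761) and from 0.534 in MS5 to 4.54 in stressed libraries (median 2.95), a difference of 1.58 ± 0.58 with and 1.72 ± 0.58 without MS5. Barhl2, a homeodomain factor of diencephalic neurons, ran from 0.033 to 0.824 CPM in controls (median 0.203) and from 0.356 in MS5 to 1.46 in stressed libraries (median 0.807), a difference of 1.21 ± 0.43 with and 1.32 ± 0.44 without MS5. For Tbr1 and Cpne9 the 2 highest controls were MC2 and MC8, whose levels lay inside the stressed range.

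**Figure D2:**
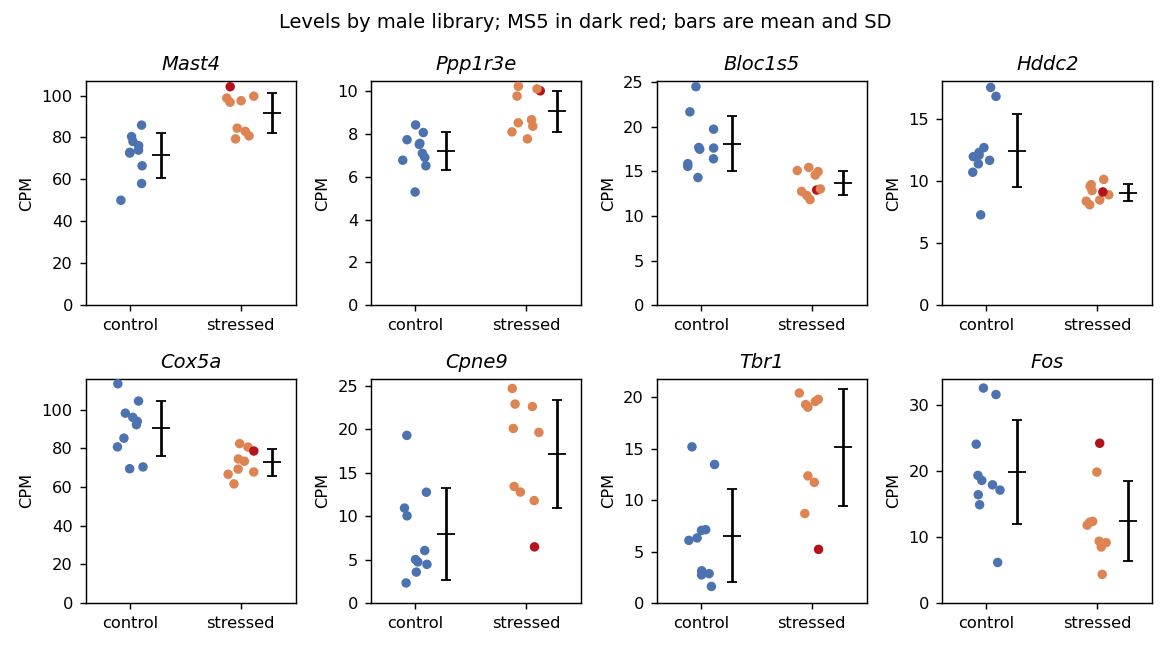
CPM of 8 genes in each male library, controls in blue and stressed males in orange with MS5 in dark red. Bars give the mean and SD of each group (10 controls, 9 stressed), all axes start at 0, and both groups overlap for every gene, with MS5 at the lower end for Tbr1 and Cpne9 and at the top of the stressed libraries for Fos.

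The differences of Tbr1 were 1.18 in libraries numbered up to 5 and 1.19 in those from 6, and those of Cpne9 1.07 and 1.18. Lhx1 gave 1.18 and 2.04 and Barhl2 1.58 and 0.99. Markers of the thalamus, whose relay neurons are also excitatory, were above 0 for 8 of 8 with and without MS5, where 45% and 46.9% of all genes were. The medians of these markers were 0.17 with and 0.18 without MS5, or 0.075 without MS4. Among them Calb2, the calcium-binding protein calretinin, ran from 28 to 117 CPM in controls (median 67.1) and from 47.8 in MS5 to 160 in stressed libraries (median 105), a difference of 0.51 ± 0.24, or 0.62 ± 0.23 without MS5. Slc17a6, the vesicular glutamate transporter of subcortical excitatory neurons, ran from 8.80 to 48.8 CPM in controls (median 26.3) and from 11.8 in MS5 to 66.4 (median 39.5), a difference of 0.59 ± 0.37, or 0.72 ± 0.37 without MS5. The rest of the thalamic list had smaller differences. Tcf7l2 gave 0.03 ± 0.20, Prkcd, which is also on the adBNST list, 0.02 ± 0.34 and Rora 0.09 ± 0.15. Plekhg1, Gbx2 and Lef1 ran from 0.15 to 0.27.

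Markers of cortical excitatory neurons other than Tbr1 did not stand with it. The cortical transporter Slc17a7 gave 0.07, Neurod2 -0.20, Fezf2 0.10, Cux2 0.09 and Neurod6 0.05, so the list's median was 0.068, or 0.12 without MS5, and ran from -0.0086 without MC4 to 0.13 without MS3. Septal markers had a median of 0.20, or 0.19 without MS5, 0.13 without MC3 and 0.31 without MC4. With and without MS5, 8 of 11 were above 0, where 45% and 46.9% of all genes were. The 3 members below 0 were Htr1d (-0.29 ± 0.26), Nts (-0.25 ± 0.19) and Lhx2 (-0.12 ± 0.21). The septal zinc finger gene Zic1 ran from 11.7 to 56.6 CPM in controls (median 28) and from 28.3 to 73.2 in stressed libraries (median 56.4), a difference of 0.68 ± 0.29, or 0.76 ± 0.30 without MS5. All 9 stressed libraries lay above the control median of Zic1 and 4 above the highest control. Prdm16, a zinc finger regulator of the same list, gave 0.42 ± 0.16, with 6 stressed libraries above every control.

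Striatal markers went the other way, with 0 of 12 above 0 and none at an unadjusted p under 0.05. Their median was -0.31, or -0.37 without MS5, and -0.32 and -0.36 in the 2 number sets. Without MC4, which had the highest striatal score of all male libraries at 1.15, it was -0.16. Tac1, the precursor of substance P and a marker of direct-pathway neurons, ran from 54.4 to 181 CPM in controls (median 96.1) and from 42.5 to 109 in stressed libraries (median 73.8), a difference of -0.49 ± 0.27. The dopamine receptor Drd2 gave -0.34 ± 0.25 and the adenosine receptor Adora2a -0.30 ± 0.29. Region scores of single libraries were wide, from -0.79 to 1.15 in controls and from -1.15 to 0.42 in stressed males for the striatum, and the part of these regions in the differences of Tbr1, Cpne9, Fos and the peptides was not tested.

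Other genes brought forward without MS5 were Rassf9, an endosomal protein gene, at 1.01 ± 0.35 with and 1.05 ± 0.36 without it, the adhesion receptor Adgrd1 at 0.47 ± 0.18 and 0.54 ± 0.18, and the potassium channel Kcnh5 at 0.59 ± 0.21 and 0.64 ± 0.22. Kcnh5, an ether-a-go-go channel subunit, ran from 5.15 to 12.9 CPM in controls (median 8.48) and from 9.68 to 19.5 in stressed libraries (median 11), all of these above the control median. On the lower side Klc3, a kinesin light chain gene, ran from 0.911 to 2.79 CPM in controls (median 1.36) and from 0.547 to 1.27 in the stressed libraries other than MS5, which stood at 2.18. Its difference was -0.53 ± 0.22 with and -0.69 ± 0.22 without MS5. The germline factor gene Zglp1 gave -0.85 ± 0.29 and -0.87 ± 0.31.

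Across the whole transcriptome, the sign of the difference followed the length of the transcript. Over 16036 genes with a known length, the longest GENCODE transcript and the stress difference had a Spearman correlation of 0.483, and 0.47 without MS5; this is across genes, which share the libraries and are not independent. In the decile of genes with the shortest transcripts, of 55 to 1332 bases, 79.2% were below 0 and the median was -0.19. In the decile with the longest, from 6731 bases, 12.9% were below 0 and the median was 0.15. Of the 404 genes lower at an unadjusted p under 0.05, 120 were in the shortest decile and 3 in the longest, and of the 248 higher 7 and 107. The fifth and sixth deciles, from 2845 to 3818 bases, had medians of -0.046 and -0.013, and the seventh, at 3818 to 4410 bases, 0.0039.

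This pattern moved with single libraries and in particular with a pair of controls. A library's own correlation of centred log2 CPM with length ran from -0.42 to 0.25 in controls (mean -0.050 ± 0.22, SD) and from 0.0088 to 0.33 in stressed males (mean 0.17 ± 0.11, SD). The groups overlapped, and the lowest values were those of MC7 (-0.42) and MC3 (-0.33). Without both, the median of the shortest decile was -0.094 and that of the longest 0.070, with 77 genes higher and 132 lower at an unadjusted p under 0.05. Within libraries numbered up to 5 the shortest and longest deciles had medians of -0.16 and 0.12, and from 6 of -0.24 and 0.18. The ribosomal RNA precursor Rn45s, which poly-A selection mostly removes, took 2.17% of counts in MC3 and 1.35% in MC7, within 0.121% to 2.38% in controls and 0.155% to 2.19% in stressed males. Among males up to number 5 it was above 1% in MC3 and MS5 (1.28%), whose length correlations were -0.33 and 0.245, and at most 0.311% in the others. The sources used here give no RNA integrity values, and the part of RNA quality or of library preparation in this pattern was not tested.

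**Figure D3:**
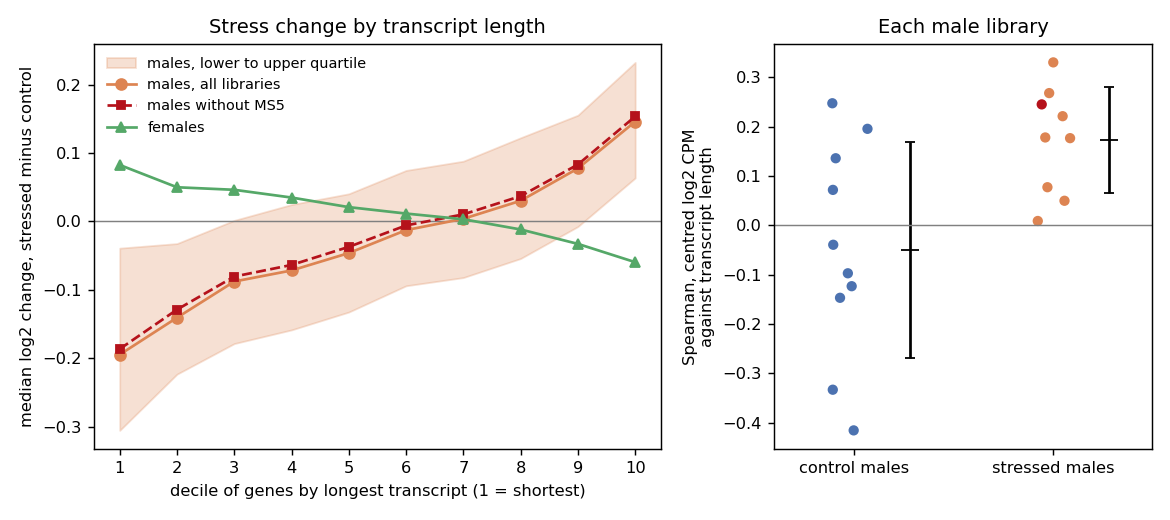
Left, median log2 difference (stressed minus control) by decile of genes ordered by longest transcript, for males with all libraries (orange, band from the lower to the upper quartile of genes), males without MS5 (dark red) and females (green). Right, each male library's Spearman correlation of centred log2 CPM with transcript length, MS5 in dark red, with mean and SD; stressed males run from 0.0088 to 0.33 and controls from -0.42 to 0.25.

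Gene groups with short transcripts were below 0 in nearly all members. Oxidative phosphorylation subunits, which build the respiratory chain and ATP synthase, were below 0 for 73 of 75, with 13 lower at an unadjusted p under 0.05 against 2.48% of all genes, and a median of -0.29. Without MS5 these were 73 of 75, 9 members against 1.66%, and -0.28. The median was -0.29 and -0.27 in the number sets, and -0.19 without MC3. Members below 0 came from all 5 complexes, as with Ndufc1 (-0.41 ± 0.14) and Ndufs4 (-0.34 ± 0.13) of complex I, Sdhb of complex II (-0.21 ± 0.13), Uqcr10 of complex III (-0.41 ± 0.21), Cox5a and Cox7a2 (-0.34 ± 0.15) of complex IV and Atp5k and Atp5g3 (-0.17 ± 0.073) of ATP synthase. Atp5k ran from 35.8 to 95 CPM in controls (median 58.9) and from 30.7 to 53.8 in stressed libraries (median 40.1), a difference of -0.55 ± 0.21.

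Ribosomal proteins, of the cytosol and of mitochondria, had the same sign. Cytosolic ones were below 0 for 79 of 80, with 14 lower at an unadjusted p under 0.05 against 2.48% of all genes (4 without MS5, against 1.66%), and a median of -0.34, or -0.33 without MS5 and -0.21 without MC3. Rpl38, a protein of the large subunit, ran from 45.3 to 100 CPM in controls (median 63.8) and from 38.1 to 63.3 in stressed libraries (median 49.7), a difference of -0.49 ± 0.21. Reads of ribosomal protein genes can be shared with their many pseudogenes, so single values are less certain. Mitochondrial ones were below 0 for 74 of 77, with 15 lower at that level against 2.48% of all genes (8 without MS5, against 1.66%), and a median of -0.20, or -0.19 without MS5. Mrpl13 ran from 21 to 39.2 CPM in controls (median 26.2), with MC3 the highest, and from 18.6 to 26.6 in stressed libraries (median 20), with 7 of 9 below every control, a difference of -0.37 ± 0.13. Without MC3 the difference of Mrpl13 was -0.29 and the median of the mitochondrial list -0.14.

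The scores of these lists overlapped between the groups. Stressed males ran from -0.29 to -0.026 for oxidative phosphorylation and controls from -0.24 to 0.55, with MC3 (0.55) and MC7 (0.44) the 2 highest and MC10 (-0.24) the lowest control. For cytosolic ribosomal proteins MC3 stood at 0.93 and MC7 at 0.49, against at most 0.20 in any other male library. Proteasome subunits, which form the machine that degrades tagged proteins, were below 0 for 28 of 31, with 6 lower at the unadjusted level against 2.48% of all genes (2 without MS5, against 1.66%) and a median of -0.15, -0.14 without MS5 and -0.097 without MC7. After the running median of genes of like length was taken off, the medians were -0.089 for oxidative phosphorylation, -0.16 for cytosolic ribosomal proteins, -0.058 for mitochondrial ones and -0.046 for the proteasome.

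Regulators of chromatin with long transcripts, mostly methyltransferases, remodellers and coactivators, were the mirror image. All 30 were above 0 and 10 were higher at an unadjusted p under 0.05, against 1.52% of all genes, with a median of 0.17. Without MS5, 29 of 30 were above 0, 10 were higher at that level, against 1.34%, and the median was 0.18. Kmt2c, a histone H3 lysine methyltransferase, ran from 105 to 255 CPM in controls (median 181) and from 196 to 280 in stressed libraries (median 239), a difference of 0.37 ± 0.15. Setd1b, another methyltransferase of this kind, ran from 56 to 83.5 CPM (median 72.1) and from 75 to 96.1 (median 82.3), a difference of 0.23 ± 0.081, and Arid1a of the SWI/SNF remodelling complex gave 0.18 ± 0.076. In each of these 3 genes all 9 stressed libraries lay above the control median. The acetyltransferases Crebbp and Ep300, coactivators of CREB, gave 0.28 ± 0.13 and 0.25 ± 0.11, and the methyltransferase Kmt2a 0.29 ± 0.14. Huwe1, a large ubiquitin ligase that is no chromatin protein in the narrow sense, was among the 10, at 0.24 ± 0.10. The list was chosen for transcript length as well as function, and against genes of like length its median was 0.027. Its scores ran from -0.43 in MC7 to 0.17 in controls and from -0.045 to 0.20 in stressed males.

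Immediate early genes, whose transcription starts within minutes of neuronal firing, had values below 0 in most members, but few of them at the unadjusted level. In neurons, calcium and cyclic AMP signals activate CREB, which binds the cyclic AMP response element (CRE) in the promoters of many of these genes. Of 29 tested, 27 were below 0, 1 was lower at an unadjusted p under 0.05, near the 2.48% of all genes (3 without MS5, against 1.66%), and the median was -0.20, or -0.25 without MS5. Against genes of like length the median was -0.14, or -0.19 without MS5. The windows of 300 bases around the annotated starts of Fos, Fosb and Fosl2, 250 before and 50 after, are given because these were the 3 members lower at an unadjusted p under 0.05 without MS5. They are RefSeq sequences of GRCm38.p6, 5′ to 3′ on the gene's strand, with the CRE core TGACG in capitals.
Fos, chr12:85473640-85473939, plus strand: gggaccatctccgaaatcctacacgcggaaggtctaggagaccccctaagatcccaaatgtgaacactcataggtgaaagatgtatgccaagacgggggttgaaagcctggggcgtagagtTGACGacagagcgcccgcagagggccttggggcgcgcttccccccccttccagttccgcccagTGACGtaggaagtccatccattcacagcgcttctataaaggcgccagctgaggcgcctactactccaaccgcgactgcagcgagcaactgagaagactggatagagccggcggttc
Fosb, chr7:19309996-19310295, minus strand: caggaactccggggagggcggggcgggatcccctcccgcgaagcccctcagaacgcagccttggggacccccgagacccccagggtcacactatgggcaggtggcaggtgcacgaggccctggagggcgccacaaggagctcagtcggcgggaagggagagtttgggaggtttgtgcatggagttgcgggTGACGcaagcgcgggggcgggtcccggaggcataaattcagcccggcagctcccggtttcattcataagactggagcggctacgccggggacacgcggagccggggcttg
Fosl2, chr5:32136222-32136521, plus strand: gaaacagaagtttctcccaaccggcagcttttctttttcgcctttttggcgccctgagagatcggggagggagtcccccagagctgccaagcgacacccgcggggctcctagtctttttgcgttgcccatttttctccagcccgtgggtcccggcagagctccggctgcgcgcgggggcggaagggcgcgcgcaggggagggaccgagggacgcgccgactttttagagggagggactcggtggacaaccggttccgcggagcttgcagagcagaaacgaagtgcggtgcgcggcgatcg

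The window of Fos held 2 matches of TGACG, that of Fosb 1 and that of Fosl2 0, with both strands searched. Among 23 immediate early genes with a promoter in the table, 16 (69.6%) held TGACG on either strand, against 4167 of 12715 tested genes (32.8%). The full CRE, TGACGTCA, which contains TGACG, was found in 4 (17.4%), against 419 (3.3%). A match is a description of the letters and not a measured binding site.

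Members of the AP-1 and Egr families and Arc were the furthest below 0. Fos, a subunit of the AP-1 transcription factor, ran from 6.13 to 32.5 CPM in controls (median 18.2) and from 4.33 to 24.2 in stressed libraries (median 11.8), with MS5 the highest stressed library. The difference was -0.68 ± 0.36 with and -0.85 ± 0.36 without MS5. The value was -0.47 for libraries up to number 5 and -1.09 for those from 6. In controls MC9 was the lowest by far for Fos and Fosb, and 7 of 9 stressed libraries lay below the control median of Fos.

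Other members had smaller differences with the same sign. Fosl2, another AP-1 subunit, ran from 16.4 to 71.3 CPM in controls (median 34.7) and from 15.5 to 36.9 in stressed libraries (median 26.4), a difference of -0.59 ± 0.24, or -0.61 without MS5. Fosb ran from 6.98 to 28.2 CPM in controls (median 18.2) and from 7.61 to 17.3 in the stressed libraries other than MS5, which stood at 20.2. Its difference was -0.45 ± 0.26 with and -0.54 ± 0.26 without MS5. Egr2 gave -0.64 ± 0.39, Egr4 -0.55 ± 0.32, Arc, which remodels synapses, -0.58 ± 0.40 and the nuclear receptor Nr4a1 -0.47 ± 0.30. Nr4a2 (0.39 ± 0.25) and Klf4 (0.17 ± 0.18) were the 2 members above 0. Beside these, the list's score was lowest in MS6 (-0.58) among stressed males and in MC9 (-0.43) among controls, and the striatal score in MS8 (-1.15) and MC9 (-0.79).

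Neuropeptide precursors were below 0 for 25 of 29, with 3 lower at an unadjusted p under 0.05 against 2.48% of all genes (2 without MS5, against 1.66%) and a median of -0.22, or -0.19 without MS5, -0.11 without MC3 and -0.14 without MC9. Cartpt, the precursor of CART peptides that act on feeding and stress, ran from 20.5 to 53.7 CPM in controls (median 33) and from 14.6 to 37.9 in stressed libraries (median 24.5), a difference of -0.45 ± 0.17, or -0.38 ± 0.17 without MS5. Pdyn, the dynorphin precursor, ran from 126 to 199 CPM (median 159) and from 103 to 158 (median 143), a difference of -0.22 ± 0.10 with and without MS5, and all 9 stressed libraries lay below the control median. Most precursor transcripts are short, and against genes of like length the list's median was -0.043.

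A panel of 13 genes of peptide, potassium channel and steroid signalling was followed whatever its result. None had an unadjusted p under 0.05 with MS5 counted, and they ran from -0.68 (Fos) to 0.27 (the PACAP precursor Adcyap1). The stress peptide Crh ran from 16.3 to 34.7 CPM in controls (median 21.5) and from 4.72 to 26.7 in stressed libraries (median 20.1), a difference of -0.26 ± 0.21 without MS5. Npy ran from 40.6 to 98.6 CPM in controls (median 53.9) and from 39.2 to 57.9 in stressed libraries (median 46.7), a difference of -0.31 ± 0.29 without MS5. The M-current subunits Kcnq3 and Kcnq5 gave 0.03 ± 0.21 and 0.02 ± 0.18 without MS5. The glucocorticoid receptor Nr3c1 and its co-chaperone Fkbp5 gave 0.17 ± 0.12 and 0.04 ± 0.13, also without MS5.

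Medians of receptor and channel lists were small. The values with and without MS5 were 0.094 and 0.082 for sodium, calcium and HCN channels (0.023 without MC7), 0.084 and 0.078 for GABA synthesis, transport and receptors (0.14 without MC5 and 0.049 without MC6), and 0.070 and 0.075 for synaptic scaffolds and adhesion genes (0.034 without MC7). Against genes of like length the medians were -0.022, 0.031 and -0.024 for these 3 lists and -0.019 for potassium channels. In libraries numbered up to 5 the first 3 medians were 0.027, -0.0081 and 0.0049, and in those from 6 they were 0.17, 0.19 and 0.085. Potassium channels had 0.046 and 0.041, but -0.0028 without MC7, -0.032 in libraries numbered up to 5 and 0.14 in those from 6. Cacna2d2, an auxiliary calcium channel subunit, ran from 167 to 237 CPM in controls (median 202) and from 188 to 263 in stressed libraries (median 242), a difference of 0.20 ± 0.086 with 6 stressed libraries above every control. The muscarinic receptor Chrm2 ran from 1.03 in MC3 to 7.94 CPM in controls (median 4.20) and from 4.63 to 11.4 in stressed libraries (median 7.49), a difference of 0.70 ± 0.32, or 0.76 ± 0.33 without MS5. The scaffold gene Homer2 gave 0.30 ± 0.13, the metabotropic glutamate receptor Grm2 0.57 ± 0.24 and the dopamine receptor Drd5 -0.51 ± 0.23.

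Glucocorticoid target genes, which are switched on when stress hormone binds its receptor, had a median of -0.11, or -0.085 without MS5, with 14 of 22 below 0 and 0 at an unadjusted p under 0.05 in either direction. That median was -0.071 without MC3, -0.022 without MC4, -0.043 without MC6 and -0.073 without MS2. Hif3a gave 0.52 ± 0.30, Zbtb16 0.51 ± 0.30 and the metallothionein Mt2 -0.42 ± 0.25. Interferon and antigen presentation genes were below 0 for 14 of 20 with a median of -0.13 (-0.15 without MS5 and -0.088 without MC3). Heat shock and ER chaperones were below 0 for 16 of 28, with a median of -0.028 (-0.020 without MS5) that turned to 0.020 without MC4. Markers of astrocytes had a median of 0.017, or 0.060 without MS5. Those of mature oligodendrocytes had one of -0.16, or -0.19 without MS5, which ran from -0.25 without MS4 to -0.0026 without MC3.

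**Figure D4:**
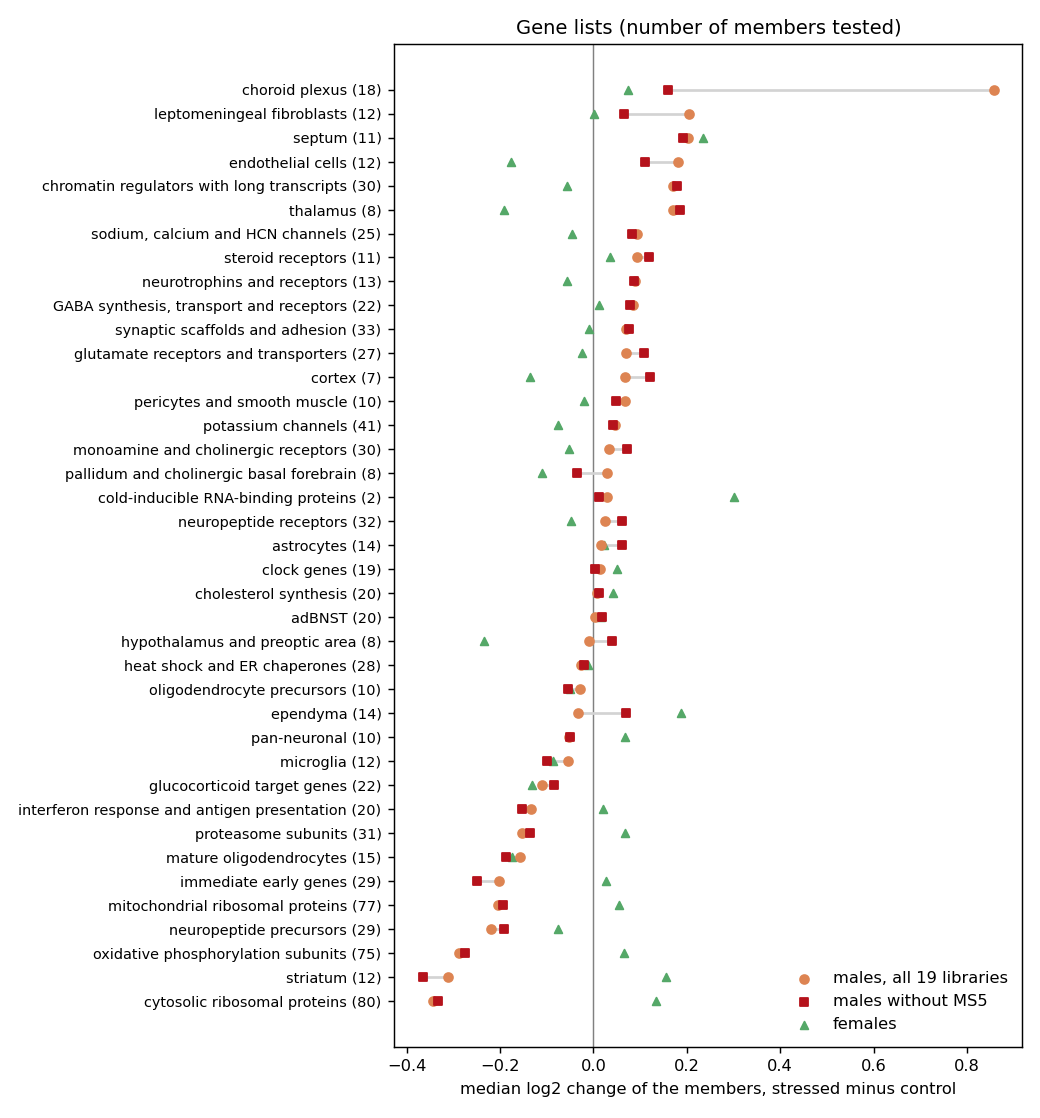
Median log2 difference (stressed minus control) of the members of 39 gene lists, with the number tested in brackets. Orange points are males with all 19 libraries, dark red squares males without MS5 and green triangles females; the grey line joins the 2 male values, which are far apart for choroid plexus (0.86 and 0.16).

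Whether these differences belonged to males was tested as the difference of the stress effects, males minus females. EdgeR called 0 of 16309 genes (0%), with a lowest adjusted p of 0.524, and 0 without MS5. At an unadjusted p under 0.05, 340 genes were higher in this difference (2.08%) and 391 lower (2.4%), 731 in all (4.48%). Without MS5 these were 295 (1.8%) and 305 (1.86%), 600 in all (3.66%). DESeq2 and voom called 0 as well. The smallest p belonged to Mast4, whose stress difference was 0.36 in males and -0.23 ± 0.089 in females, a difference of 0.59 ± 0.125 (edgeR, adjusted p = 0.524).

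In females most of the groups above had medians on the other side of 0. The female medians were 0.066 for oxidative phosphorylation, 0.13 for cytosolic ribosomal proteins, -0.057 for chromatin regulators, 0.16 for striatal and -0.19 for thalamic markers, and the correlation with transcript length was -0.289. A library's own length correlation was lowest in FS2 (-0.40) and FS1 (-0.35) among stressed females. Among female controls it was lowest in FC1 (-0.25) and FC6 (-0.24). Female values without these libraries are not given, and how far the female medians rest on them was not tested. Tbr1 gave -0.69 ± 0.42, Cpne9 -0.88 ± 0.39, Lhx1 -0.95 ± 0.60 and Barhl2 -0.67 ± 0.44 in females, and the difference between the sexes for these 4 was 1.88, 1.99, 2.53 and 1.88 (edgeR, adjusted p = 0.846 each). The median of septal markers was above 0 in both sexes, at 0.23 in females, and Fabp7 was below 0 in both, at -0.25 ± 0.12 in females. Glucocorticoid target genes (-0.13), neuropeptide precursors (-0.076) and mature oligodendrocyte markers (-0.17) also had female medians below 0, the sign they had in males.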

How the data were processed

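The deposited values were unscaled counts of reads per gene, whole numbers with a different total in each library. The submitters' processing notes name mm10, STAR, featureCounts and DESeq2, with no versions. Per the labels' protocols, RNA was purified with a micro-scale column kit and stranded poly-A libraries were made. No source used here states the annotation or whether counting used the strand, so overlapping or near-identical genes are less certain. Each column's name matched 1 library, with 0 columns left over. The closest libraries differed by a chi-square per gene of 18.9 in controls and 10.2 in stressed males, so none was treated as a copy.

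Of 25230 genes, 3439 had no count in any library. After filterByExpr by group and TMM scaling over all 38 libraries, 16309 genes were tested and 8921 were not. EdgeR 4.0.16 (R 4.3.3) fitted a mean for each of the 4 groups, which is the sex, condition and interaction model the series describes, with robust quasi-likelihood tests and Benjamini-Hochberg adjustment at 0.05. DESeq2 1.42.0 and limma 3.58.1 were alternatives. The test was checked on simulated counts of 16211 genes. Coordinates are from RefSeq's GRCm38.p6 for 16194 tested symbols, and lengths from GENCODE M21 for 16036. Scores used log2 CPM with a prior count of 2 and like-length medians a window of 501 genes.

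The comparison, its 40 gene lists and the panel were chosen with earlier results of these data known. Named were the 10 genes of smallest p on each side, with MS5 and again without it, up to 3 members with the smallest p of each list, the panel, and up to 15 genes with the largest ratio of MS5 to the highest other male library. Unnamed gene models, Xist and Y-linked genes were passed over and some members are left out for length. Trpm3, Ndufs4, Sdhb, Uqcr10, Cox7a2, Atp5g3, Crebbp, Ep300, Kmt2a, Huwe1, Adora2a, Slc17a7, Fezf2, Neurod6, Tcf7l2, Prkcd, Rora, Plekhg1, Gbx2, Htr1d, Nts, Lhx2, Egr2, Egr4, Arc, Nr4a1, Nr4a2 and Klf4 fall outside the rule and were chosen after their values were seen. A further list member is not reported here. The alternatives, whose effect is given at the end, were DESeq2's size factors, no filter, DESeq2, voom with quality weights, male libraries alone with and without a replicate block, a term for the number set, each number set alone, leaving out the 5 libraries of the series that stood apart (MC3 among the males) and leaving out each male library.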

Additional observations from a re-analysis of the deposited data

Results flagged for a closer look

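In 206 groups of values, each gene or list score in controls or in stressed males, 27 held a highest or lowest library far from all others by Dixon's ratio, a test that chance passes in about 1 of 20 groups. Up to 15 of the genes had been named because their ratio of MS5 to the other males was largest. Flags of MS5 in those genes therefore followed from how they were chosen, and the rate does not apply to them. MS5 accounted for 17 of the 27 flags, MC3 for 7, MC9 for 2 and MC7 for 1. MS5 was far above the other stressed males for Ttr (2878 CPM), Igf2 (230.8), Kl (139), Igfbp2 (51.9), F5 (51.8), Kcnj13 (34.5), Abca4 (22.4), Sostdc1 (21.9), Folr1 (20.3), Aqp1 (19), Cldn2 (16.6), Kcne2 (15), Trpv4 (13.2) and Rbm47 (6.15). It was also far above them for the scores of choroid plexus (3.44) and of oligodendrocyte precursors (0.334), and far below them for Lhx1 (0.534 CPM).

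MC3, the shallowest library, stood far below the other controls for Kl (3.78 CPM), Chrm2 (1.03 CPM), F5 and Rassf9 (0 CPM each) and the choroid plexus score (-1.62), and far above them for Mrpl13 (39.2 CPM) and Cabyr (9.73 CPM). In MC9, Fos (6.13 CPM) and Fosb (6.98 CPM) were far below the other controls. In MC7 the score of sodium, calcium and HCN channels (-0.444) was far below them.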

How the results depend on the processing

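No gene passed for stress in males under any of 30 alternatives, nor for the difference between the sexes under any of the 28 that gave one, and 60 of 64 named genes kept one sign throughout. The exceptions were Aqp1 (-0.15 with DESeq2, -0.21 in libraries numbered from 6 and -0.13 without MS5), Abca4 (-0.19, -0.27 and -0.20 in the same order), Igfbp2 (-0.31 from 6 and -0.24 without MS5) and Kcne2 (-0.12 from 6). All 4 rest on MS5, whose counts DESeq2 can replace as outliers in groups of this size, and with any other single library left out they were positive, up to 2.35 for Aqp1, 1.11 for Abca4 and 0.79 for Igfbp2. Of 39 list medians, 21 kept their sign in every setting.

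Counts at an unadjusted p under 0.05, 248 higher and 404 lower, moved more. The number higher was 484 with no filter, 523 with voom, 467 with male libraries alone, 491 with a term for the number set and 491 without the 5 libraries that stood apart. The number lower was 632, 728 and 704 with no filter, male libraries alone and the number set term. Leaving out 1 male library gave 139 to 528 higher and 188 to 602 lower. Leaving out MC3 and MC7 together, chosen after seeing the data, gave 77 and 132, and a median of -0.094 in the shortest decile.

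With the replicate number as a block, 0 genes passed and 1161 were higher and 1015 lower at the unadjusted level. The labels do not say that a number marks a shared source. Same-numbered deviations correlated over 0.1 in 6 of 9 pairs (-0.0757 to 0.584), short of all pairs, and 1 stressed library correlated best with its own number, so the libraries were not treated as paired, which these values do not settle. Depth limits genes near 1 CPM, such as Lhx1 and Barhl2, and MC3, with 9.06 M counts, most of all. The cause of these shifts was not tested.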
